A study of Mus musculus with 29 samples.

Results

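The genes described here are 9 genes of myelin and mature oligodendrocytes, Mbp, Mobp, Cnp, Mag, Mog, Opalin, Cldn11, Ugt8a and Ppp1r14a, out of 36172 gene rows in the table. They were chosen by symbol, and the choice used measured values: it includes the 5 genes with the largest fall in the astrocyte pulldown relative to the unbound RNA of the same mice. RNA of 9 mice was sequenced after translating ribosome affinity purification (TRAP), in 29 libraries of 6 groups. Aldh1l1-Cre/Ert2+; NuTRAP+ mice (3 mice, groups A Pos and A Neg) carry a tamoxifen-inducible Cre driven by the astrocyte promoter Aldh1l1, and Cx3cr1-Cre/Ert2+; NuTRAP+ mice (6 mice, groups C Pos, C Neg and C Input, and C Slice from 5 of them) carry one driven by the microglia and macrophage promoter Cx3cr1. Both crosses share the NuTRAP allele, which after recombination tags ribosomes with EGFP, so neither line was made to tag oligodendrocyte ribosomes. All mice, males and females of about 3 months, were given tamoxifen on 5 consecutive days, and tissue of the Cx3cr1 line was collected after a longer delay. The positive fraction (Pos) is the RNA on anti-GFP beads, the negative fraction (Neg) is the unbound RNA, the input (Input) is the supernatant of the homogenate after a spin of 10 minutes, and whole tissue (Slice) is conventionally isolated brain RNA. Input and whole tissue of the Aldh1l1 line were not analysed here.

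Myelin is the multilayered membrane that oligodendrocytes wrap around axons in the central nervous system. It is rich in a few proteins and in galactolipids, and its genes are switched on together as precursors mature, under factors such as Sox10 and Myrf. The mRNAs of Mbp and Mobp are known to be carried out into the oligodendrocyte processes and translated close to the growing sheath, while proteins such as Mag, Mog and Cldn11 are made at the rough endoplasmic reticulum. In bulk RNA of this kind, fewer oligodendrocytes and less of an mRNA in each of them cannot be told apart.

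The 8 members with a promoter window lie on 6 chromosomes of mm10. Cldn11 (chr3:31149920-31164326, plus strand) and Ugt8a (chr3:125865343-125938550, minus strand) share chromosome 3, and Ppp1r14a (chr7:29289320-29293390, plus) and Mag (chr7:30899183-30914832, minus) share chromosome 7. Mobp (chr9:120149742-120176091, plus), Cnp (chr11:100574939-100581739, plus), Mog (chr17:37010740-37023398, minus) and Opalin (chr19:41063420-41077113, minus) are each on another chromosome. RefSeq promoter windows (GRCm38.p6, 250 bases before to 50 after a start) were at hand for 8 of the 9 members, in 10 windows since Mag has several starts. They were searched on both strands for ACAAAG and ACAATG, cores bound by SOX proteins, and for CTGGCAC and CTGGTAC, cores bound by Myrf. ACAAAG was in windows of Cnp, Mag, Mobp and Opalin and in 18.7% of 32851 windows of all genes, and ACAATG was in no window of a member and in 12.6% of all. CTGGCAC was in windows of Cnp, Mag and Opalin and in 5.01% of all, and CTGGTAC was in the window of Mog and in 2.24% of all. Such a match is a description of letters, and no match says nothing about a factor. The 250 bases upstream of the start are shown for 5 members, 5′ to 3′ on the strand of the gene with these matches in capitals on either strand: Cnp because it did not follow the others in the astrocyte pulldown, Ugt8a because its difference there was the largest of the members and it has no match, and Mag, Mog and Mobp because they hold matches.
Cnp (chr11:100574689-100574938, plus): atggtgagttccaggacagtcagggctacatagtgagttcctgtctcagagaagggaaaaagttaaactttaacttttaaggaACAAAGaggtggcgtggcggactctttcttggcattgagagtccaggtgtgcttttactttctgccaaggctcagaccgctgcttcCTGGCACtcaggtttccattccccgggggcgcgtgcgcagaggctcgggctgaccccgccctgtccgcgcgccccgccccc
Ugt8a (chr3:125938653-125938902, minus): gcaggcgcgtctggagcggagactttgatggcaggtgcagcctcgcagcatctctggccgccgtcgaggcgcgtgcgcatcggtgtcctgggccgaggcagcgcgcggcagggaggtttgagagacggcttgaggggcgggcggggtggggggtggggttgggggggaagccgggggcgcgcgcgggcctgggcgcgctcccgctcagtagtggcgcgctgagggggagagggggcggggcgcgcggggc
Mag (chr7:30914923-30915172, minus): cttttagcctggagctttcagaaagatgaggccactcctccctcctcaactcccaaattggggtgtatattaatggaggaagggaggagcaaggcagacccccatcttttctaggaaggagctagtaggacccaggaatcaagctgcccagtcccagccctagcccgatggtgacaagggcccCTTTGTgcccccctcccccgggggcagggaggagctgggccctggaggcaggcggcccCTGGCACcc
Mog (chr17:37023399-37023648, minus): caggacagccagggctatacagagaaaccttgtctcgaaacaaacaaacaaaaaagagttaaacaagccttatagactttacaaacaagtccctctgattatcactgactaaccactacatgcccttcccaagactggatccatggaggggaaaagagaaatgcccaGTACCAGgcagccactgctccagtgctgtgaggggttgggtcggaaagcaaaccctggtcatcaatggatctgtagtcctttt
Mobp (chr9:120149492-120149741, plus): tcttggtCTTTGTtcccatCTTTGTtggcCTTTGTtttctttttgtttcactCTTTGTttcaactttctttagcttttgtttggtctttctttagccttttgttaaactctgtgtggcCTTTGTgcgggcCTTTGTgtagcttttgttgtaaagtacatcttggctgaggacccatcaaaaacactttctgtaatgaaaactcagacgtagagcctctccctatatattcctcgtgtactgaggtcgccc
Mobp held 6 ACAAAG matches, all on the strand opposite to the gene, while Cnp held 1 ACAAAG and 1 CTGGCAC match.

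Total counts were between 4260949 and 26857866 per library. The lowest was C Slice of mouse 210, and the lowest in the other 5 groups was 8782235. Levels are given as CPM, the count of a gene scaled to the library total, and n is the number of mice. Every member passed the filter on low counts in every comparison, which asks for over 20 counts throughout at least one of the groups. In the Cx3cr1 line, C Pos stood apart from its input in the summed level of 10 microglia markers, 3384 to 8138 CPM in C Pos and 413.3 to 450.5 CPM in C Input. The astrocyte markers, 10 in number, summed to 17390 to 26540 CPM in A Pos and 3299 to 4344 CPM in A Neg.

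Mbp, which encodes the basic protein that compacts the cytoplasmic faces of the sheath, was the most abundant member. Per kilobase of exon (the union of its exons), the mean level in whole tissue was 424 CPM per kb for Mbp, 151 for Cnp, 113 for Cldn11, 90.1 for Mag, 63.6 for Mog, 62.3 for Mobp, 25.2 for Ugt8a, 22.4 for Ppp1r14a and 9.17 for Opalin. With the longest transcript as the length, 3 members held their place in this order, Mbp and Cnp at the top and Opalin at the bottom. In A Pos the mean level per kb was highest for Cnp, at 124 CPM per kb, and 46.0 for Mbp.

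**Figure D1:**
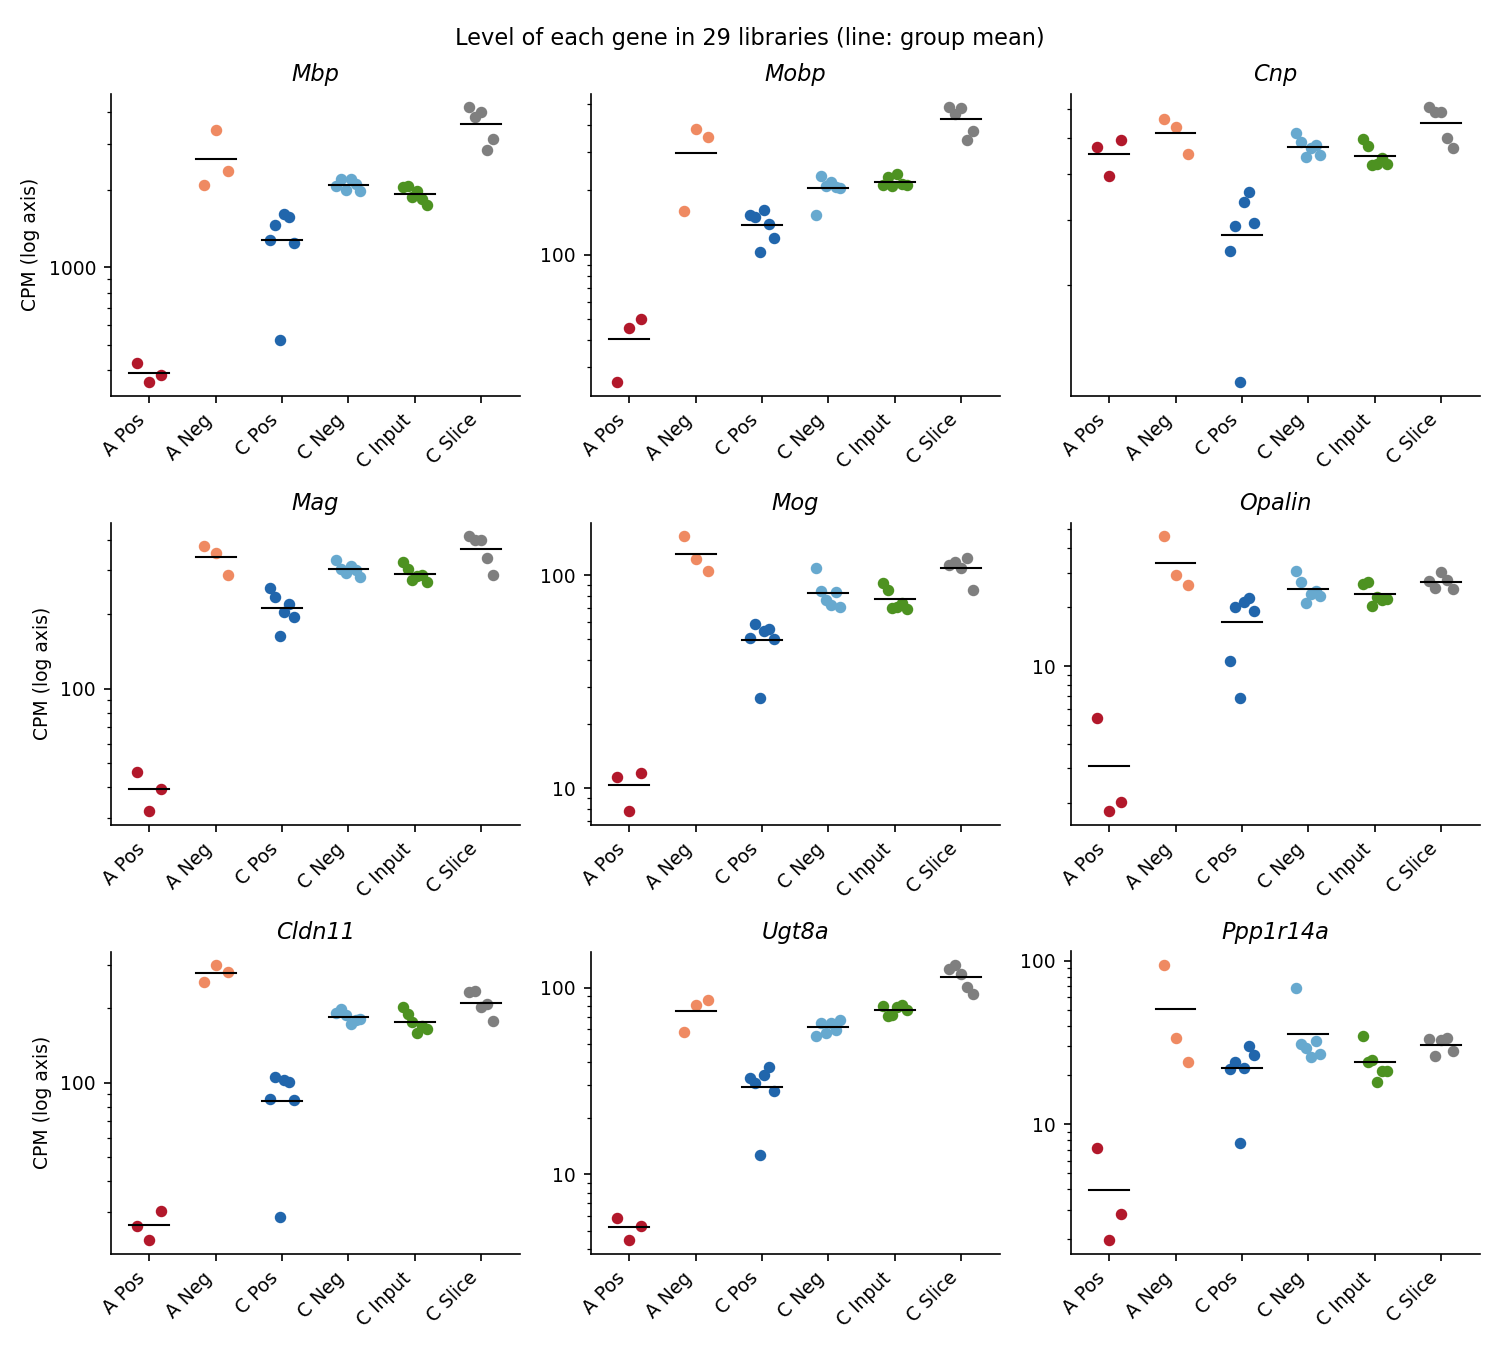
Level of each member in each library, in CPM on a log axis whose range differs between panels, with points for mice and a line for the group mean. The mean of A Pos is the lowest of the 6 for 8 members, and its points overlap A Neg for Cnp and the lowest C Pos point for Cldn11.

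The first comparison set the RNA on astrocyte ribosomes against the unbound RNA of the same mice. This comparison chose members, so its values are a description without a test. Ugt8a, the enzyme that makes galactocerebroside, was at 5.83, 4.45 and 5.32 CPM in A Pos of mice 290, 293 and 294 and at 57.7, 80.9 and 86.6 CPM in A Neg. Mog, a surface protein of the outermost lamella, was at 11.3, 7.80 and 11.8 CPM in A Pos and at 152, 119 and 105 CPM in A Neg. The A Pos libraries lay below the A Neg libraries in both genes. On the log2 scale with TMM scaling the differences, A Pos minus A Neg, were -3.50 (SE 0.22) for Ugt8a, -3.37 (SE 0.69) for Ppp1r14a, -3.27 (SE 0.25) for Mog, -3.16 (SE 0.48) for Opalin and -3.04 (SE 0.17) for Cldn11. These are the 5 largest falls among 12132 genes that had over 20 counts in each of the 6 libraries. The place of Ppp1r14a rests on the A Neg library of mouse 290, at 93.8 CPM beside 33.7 and 23.9 CPM: without that library its difference was -2.53, smaller in size than those of 6 other members. Just outside were Ermn at -3.01 (SE 0.17), a cytoskeletal protein of the myelin sheath, and Fa2h at -2.91 (SE 0.19), which hydroxylates myelin lipids. Over the 13324 genes tested, which include genes near 0 in A Pos, ranks 1 to 8 were held by Lrrc17, 2810433D01Rik, Ugt8a, Cd180, Ppp1r14a, Mog, Ido1 and Slc47a1. Of the remaining members, Mag was at -2.77 (SE 0.21), Mobp at -2.53 (SE 0.38) and Mbp at -2.40 (SE 0.21).

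Cnp, the enzyme that keeps cytoplasmic channels open in myelin, did not share this difference. Its level was 470.8, 393.9 and 492.2 CPM in A Pos and 561.4, 533.5 and 452.0 CPM in A Neg, and the groups overlapped. Its log2 difference was 0.16 (SE 0.16) with TMM scaling and -0.19 with library totals alone, a scaling that moved the median of all genes from 0.04 to -0.31. The other 8 members lay lower in A Pos without overlap between the groups, beside 41.7% of all genes tested, a count from which nothing is read since the comparison chose members. The range of Mbp was 360.3 to 425.9 CPM in A Pos against 2080 to 3401 CPM in A Neg. The percentage of the A Neg level left in A Pos of the same mouse was 5.51 to 10.1 for Ugt8a, 10.6 to 20.5 for Mbp and 73.8 to 109 for Cnp, in CPM. Summed markers of neurons, microglia, oligodendrocyte precursors and erythrocytes were also lower in A Pos, without overlap, while 5 endothelial markers overlapped (52.01 to 71.16 CPM in A Pos and 60.59 to 125.0 CPM in A Neg). The summed level in A Pos and A Neg was 1980 to 2400 and 8210 to 9015 CPM for neurons, 68.07 to 146.1 and 383.7 to 564.7 CPM for microglia, 59.53 to 60.53 and 201.2 to 258.8 CPM for oligodendrocyte precursors, and 23.85 to 79.91 and 182.5 to 406.9 CPM for erythrocytes, and their part in the members' values was not tested.

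The second comparison set the RNA on microglial ribosomes against the input of the same line, a contrast other than the one named in the choice of members. In it 7 of the 9 members were lower in C Pos at an adjusted p under 0.05 (edgeR quasi-likelihood test, 2-sided, Benjamini-Hochberg over 13840 genes) and 0 were higher, beside 25.6% of all genes tested that were lower and 23.2% that were higher. The median log2 difference was -0.63 over the members and -0.00276 over all genes. Ugt8a had a level of 12.8, 31.9 and 37.4 CPM (lowest, median and highest of 6 mice) in C Pos and of 70.3, 77.8 and 81.4 CPM in C Input, without overlap. It fell by 1.37 on the log2 scale (SE 0.18, adjusted p = 5.2e-05). Cldn11, the claudin of the tight junctions between myelin lamellae, was at 28.6, 93.2 and 105 CPM in C Pos and at 159, 173 and 202 CPM in C Input, again without overlap, and fell by 1.05 (SE 0.23, adjusted p = 0.0024). The falls of Ugt8a and Cldn11 left 38.7% and 48.3% of the input level.

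The other 5 members that passed had log2 differences between -0.70 and -0.44. Cnp was at 109, 292 and 357 CPM in C Pos and at 421, 433 and 495 CPM in C Input, and fell by 0.70 (SE 0.20, adjusted p = 0.011). Mobp, a small basic protein of compact myelin, fell by 0.65 (SE 0.10, adjusted p = 9.7e-05), from 209, 211 and 237 CPM in C Input to 103, 144 and 161 CPM in C Pos. Mog fell by 0.63 (SE 0.15, adjusted p = 0.0033), and Mag, the adhesion protein next to the axon, by 0.44 (SE 0.09, adjusted p = 0.0016). Mbp was at 523, 1372 and 1611 CPM in C Pos and at 1745, 1919 and 2069 CPM in C Input, and fell by 0.57 (SE 0.20, adjusted p = 0.027). The call for Mbp was lost without mouse 155 (adjusted p = 0.066), 192 (adjusted p = 0.066) or 277 (adjusted p = 0.063), with falls of 0.56 to 0.59. The 7 members that fell had no overlap between the groups, as had 15.3% of all genes tested in that direction.

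Opalin, a transmembrane protein of the sheath, and Ppp1r14a, an inhibitor of myosin phosphatase that smooth muscle also makes, did not pass the test. Opalin was at 6.85, 19.6 and 22.4 CPM in C Pos and at 20.3, 22.3 and 26.8 CPM in C Input, and its log2 difference was -0.47 (SE 0.23, adjusted p = 0.099). Ppp1r14a was at 7.70, 22.9 and 30.1 CPM in C Pos and at 18.2, 22.6 and 34.8 CPM in C Input, and its log2 difference was -0.12 (SE 0.24, adjusted p = 0.72). Its log2 ratio to input with TMM scaling was above 0 in 4 of 6 mice, and its CPM was above that of the input in 3 of 6. Without mouse 155 the difference was 0.01 (adjusted p = 0.98). Without the C Pos library of mouse 194 the difference was 0.08, of the opposite sign and not past the threshold (adjusted p = 0.66), and that of Opalin was -0.29 (adjusted p = 0.13).

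**Figure D2:**
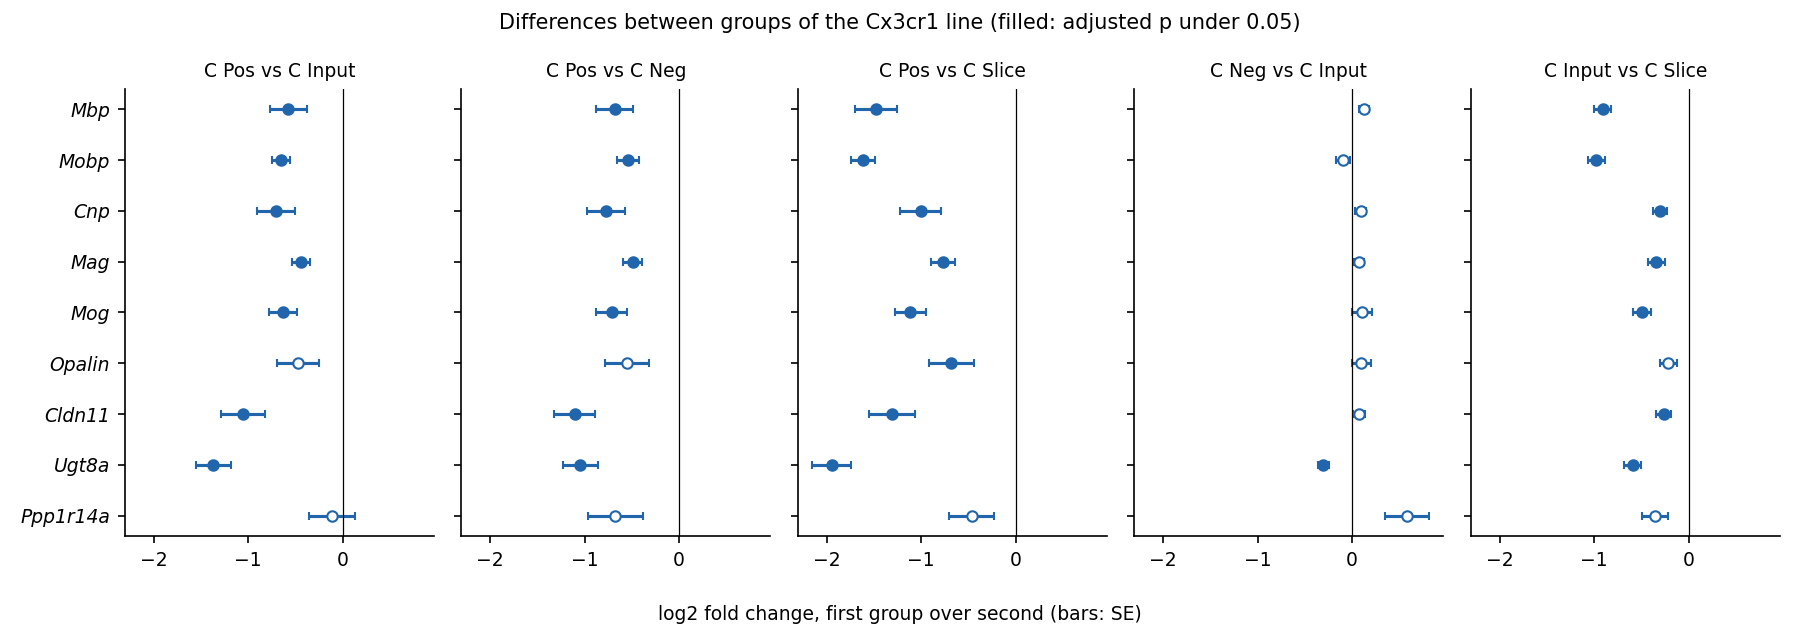
Log2 fold changes with their SE for the 9 members in 5 comparisons within the Cx3cr1 line, with filled points at an adjusted p under 0.05. Ugt8a lies farthest left in the comparisons of C Pos with C Input and C Slice, and Mbp and Mobp lie apart in that of C Input with C Slice.

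The C Pos library of mouse 194 was the lowest of the group for every member. The 9 members summed to 981.2 CPM in it and to 2061 to 2548 CPM in the other 5 C Pos libraries, and within that mouse the log2 ratio to input ran from -2.53 for Cldn11 to -0.67 for Mag. The microglia markers were highest in the same library, at 8138 CPM against 3384 to 5291 CPM in the others. Markers of astrocytes, neurons and erythrocytes were the lowest of C Pos in it, at 2979, 6204 and 24.35 CPM. Without this library 7 members were lower than in C Input and 7 lower than in C Neg, the counts obtained with it. Summed markers of astrocytes and of oligodendrocyte precursors lay below those of C Input in every C Pos library, while neuron markers overlapped (6204 to 9392 CPM in C Pos and 8571 to 8919 CPM in C Input). The 10 astrocyte markers summed to 2979 to 4616 CPM in C Pos and to 4884 to 5261 CPM in C Input, and the 7 markers of oligodendrocyte precursors to 109.8 to 136.6 and 200.0 to 222.8 CPM. The part of these cell shares in the members' levels was not tested.

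**Figure D3:**
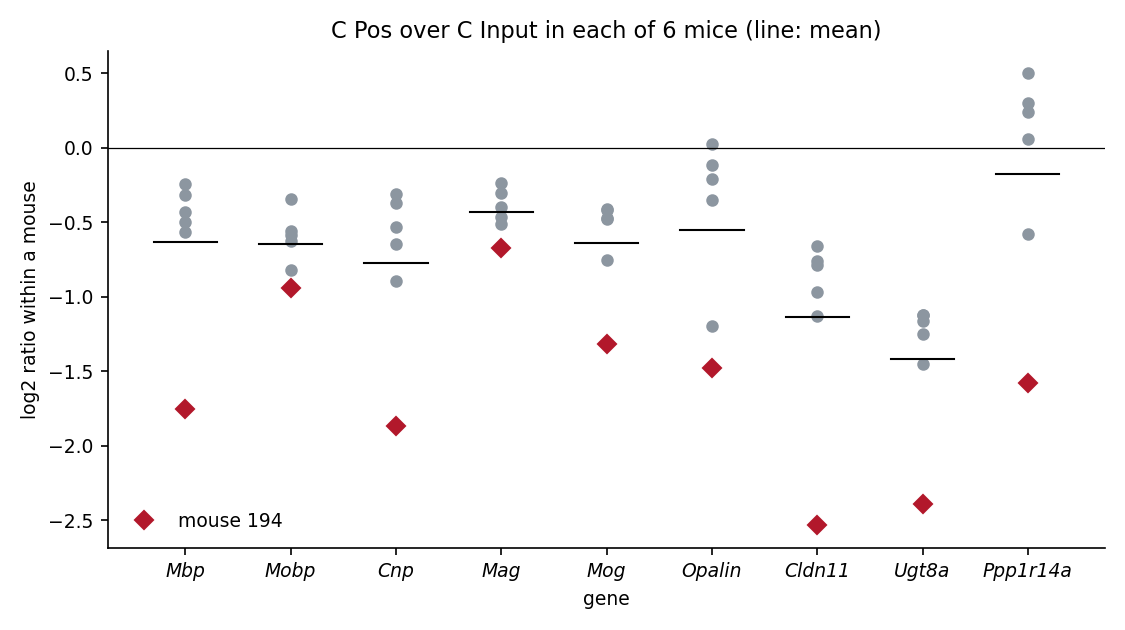
Log2 ratio of C Pos to C Input within each of 6 mice, with TMM scaling, for each member. Lines are means and the diamond is mouse 194, which has the lowest ratio for all 9 members.

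Within a mouse, the log2 ratio of C Pos to C Input of Mbp was set against that of each other member, and 0 of the 8 pairs passed after adjustment. The ratio for Mbp was above that for Cldn11 in 6 of 6 mice, by a mean of 0.50 (SD 0.16) on the log2 scale, and above that for Ugt8a in 6 of 6 mice, by 0.78 (SD 0.16). Each had an exact sign-flip p of 0.031, the smallest that 6 mice can give, and an adjusted p of 0.083 over the 8 pairs. The ratio for Mbp was above that for Cnp by 0.14 (SD 0.11) in 6 of 6 mice with the same exact and adjusted p. The mean differences from Mog, 0.00589 (SD 0.23), and from Mobp, 0.01 (SD 0.46), were smaller than their spread over mice, as were those from Mag, -0.20 (SD 0.47, Mbp lower in 4 of 6 mice), and Opalin, -0.08 (SD 0.35, Mbp lower in 5 of 6). The ratio for Mbp was below that for Ppp1r14a in 5 of 6 mice, by a mean difference of -0.46 (SD 0.32, exact sign-flip p = 0.0625, adjusted p = 0.125).

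Against the negative fraction, 7 of 9 members were lower in C Pos and 0 higher, beside 11.6% of 13777 genes that were lower and 12.8% that were higher. The groups did not overlap for 6 members, beside 5.85% of all genes. Cldn11 fell by 1.11 (SE 0.22, adjusted p = 0.0024) and Ugt8a by 1.05 (SE 0.18, adjusted p = 0.00086), and Cnp, Mog, Mbp, Mobp and Mag fell by 0.78, 0.71, 0.68, 0.54 and 0.49. Ppp1r14a had a log2 difference of -0.68 (SE 0.29, adjusted p = 0.10), or -0.38 without the C Neg library of mouse 155, and Opalin had one of -0.55 (SE 0.23, adjusted p = 0.093). Without mouse 192 the calls for Mbp (adjusted p = 0.068) and Cnp (adjusted p = 0.053) were lost, and without mouse 277 that for Mbp (adjusted p = 0.061). The precursor markers summed to 109.8 to 136.6 CPM in C Pos and to 165.6 to 194.8 CPM in C Neg, lower without overlap. Markers of astrocytes (2979 to 4616 and 4089 to 5127 CPM) and neurons (6204 to 9392 and 8733 to 9316 CPM) overlapped. Their part was not tested.

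Against whole tissue, 8 of 9 members were lower in C Pos and 0 higher, beside 24.4% and 27.5% of 13474 genes. The same 8 did not overlap between the groups, as 15.8% of all genes did not in that direction. Ugt8a was at 126, 132, 119, 101 and 92.2 CPM in C Slice of mice 192, 194, 209, 210 and 277, above every C Pos library, and fell by 1.95 (SE 0.21, adjusted p = 1.05e-05). Mobp fell by 1.62 (SE 0.13, adjusted p = 1.08e-06) and Mbp by 1.47 (SE 0.22, adjusted p = 0.00016). Opalin fell by 0.68 (SE 0.24, adjusted p = 0.028), a call that was lost without mouse 192 (adjusted p = 0.067) or 277 (adjusted p = 0.057). Ppp1r14a had a log2 difference of -0.47 (SE 0.24, adjusted p = 0.12) and passed the threshold without the C Pos library of mouse 194, at -0.35 (adjusted p = 0.020). The astrocyte markers, at 2979 to 4616 CPM in C Pos and 5393 to 5993 CPM in C Slice, and the precursor markers, at 109.8 to 136.6 and 197.2 to 311.4 CPM, were lower in C Pos without overlap too, and their part was not tested.

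The negative fraction is the homogenate after the pulldown, and for most members it was close to the input. Ugt8a was the member that passed the test: it was at 55.0, 62.1 and 67.4 CPM in C Neg and at 70.3, 77.8 and 81.4 CPM in C Input, without overlap, and fell by 0.30 (SE 0.06, adjusted p = 0.027), beside 4.7% of 13749 genes that were lower, 1.4% that were higher and 2.71% that were lower without overlap. The call was lost when mouse 192, 194, 209, 210 or 277 was left out (adjusted p = 0.072, 0.077, 0.11, 0.16 and 0.084). So were nearly all calls of other genes: over all genes tested 0 were lower in each of these fits, and 0 were higher except without mouse 194, with 3. With mouse as a replicate block Ugt8a was again called lower and 3 members were called higher in C Neg, Mbp by 0.13 (adjusted p = 0.0014), Cnp by 0.09 (adjusted p = 0.024) and Ppp1r14a by 0.52 (adjusted p = 0.00067). In that fit 2684 of 13749 genes were called lower and 2432 higher. Mbp was above its input in 6 of 6 mice, with log2 ratios of 0.08 to 0.15, and Ugt8a below it in 6 of 6, with ratios of -0.50 to -0.11. The precursor markers summed to 165.6 to 194.8 CPM in C Neg and to 200.0 to 222.8 CPM in C Input, lower without overlap. Markers of astrocytes (4089 to 5127 and 4884 to 5261 CPM) and neurons (8733 to 9316 and 8571 to 8919 CPM) overlapped. Their part was not tested.

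The last comparison set the cleared homogenate against whole tissue. In it 7 of 9 members were lower in C Input and 0 higher, beside 14.2% and 16.3% of 13610 genes. For 3 members, Mbp, Mobp and Ugt8a, the groups did not overlap, beside 5.61% of all genes. Mbp was at 4170, 3834, 3982, 2847 and 3135 CPM in C Slice of mice 192, 194, 209, 210 and 277, and its C Input libraries reached from 1745 to 2069 CPM. Mobp was at 484, 450.4, 481, 342 and 377 CPM in C Slice and from 209 to 237 CPM in C Input. Mobp fell by 0.98 (SE 0.09, adjusted p = 1.5e-05) and Mbp by 0.91 (SE 0.09, adjusted p = 3.1e-05). Their levels in the cleared homogenate were 50.9% and 53.3% of those in whole tissue. The next falls were 0.59 (SE 0.09, adjusted p = 0.00029) for Ugt8a and 0.49 (SE 0.09, adjusted p = 0.0015) for Mog, followed by Mag, Cnp and Cldn11 at 0.34, 0.31 and 0.26. Opalin, at -0.21 (SE 0.09, adjusted p = 0.074), and Ppp1r14a, at -0.35 (SE 0.14, adjusted p = 0.061), did not pass the test. Ppp1r14a passed it with mouse as a replicate block (-0.49, adjusted p = 0.016) and both did without mouse 155, which has no whole tissue library, at -0.25 for Opalin (adjusted p = 0.037) and -0.49 for Ppp1r14a (adjusted p = 0.0024). The call for Cldn11 was lost without mouse 192 (adjusted p = 0.067), 194 (adjusted p = 0.12) or 209 (adjusted p = 0.063), and that for Mag without mouse 194 (adjusted p = 0.061). Other cells' markers differed between these groups as well: 5 endothelial markers summed to 75.68 to 91.16 CPM in C Input and 125.2 to 227.7 CPM in C Slice, and the astrocyte markers to 4884 to 5261 and 5393 to 5993 CPM, without overlap. Their part in the members' values was not tested.

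The log2 ratio of input to whole tissue was lower for Mbp than for Cnp, Mag, Opalin, Cldn11 and Ugt8a in 5 of 5 mice. The mean difference in the log2 ratio was -0.58 (SD 0.10) from Cnp, -0.55 (SD 0.13) from Mag, -0.61 (SD 0.17) from Cldn11, -0.66 (SD 0.25) from Opalin and -0.33 (SD 0.18) from Ugt8a. The exact sign-flip p of each was 0.0625, the smallest that 5 mice can give, and 0.1 after adjustment over 8 pairs, so this test cannot reach 0.05 with 5 mice. The ratio for Mbp was below those for Mog and Ppp1r14a in 4 of 5 mice, with mean differences of -0.37 (SD 0.27) and -0.42 (SD 0.38) and an exact sign-flip p of 0.125 for each. Mbp and Mobp differed by 0.04 (SD 0.03). Whole tissue and input differ in how the RNA was isolated as well as in the spin. These cannot be told apart here, and no cause of the differences was tested.

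**Figure D4:**
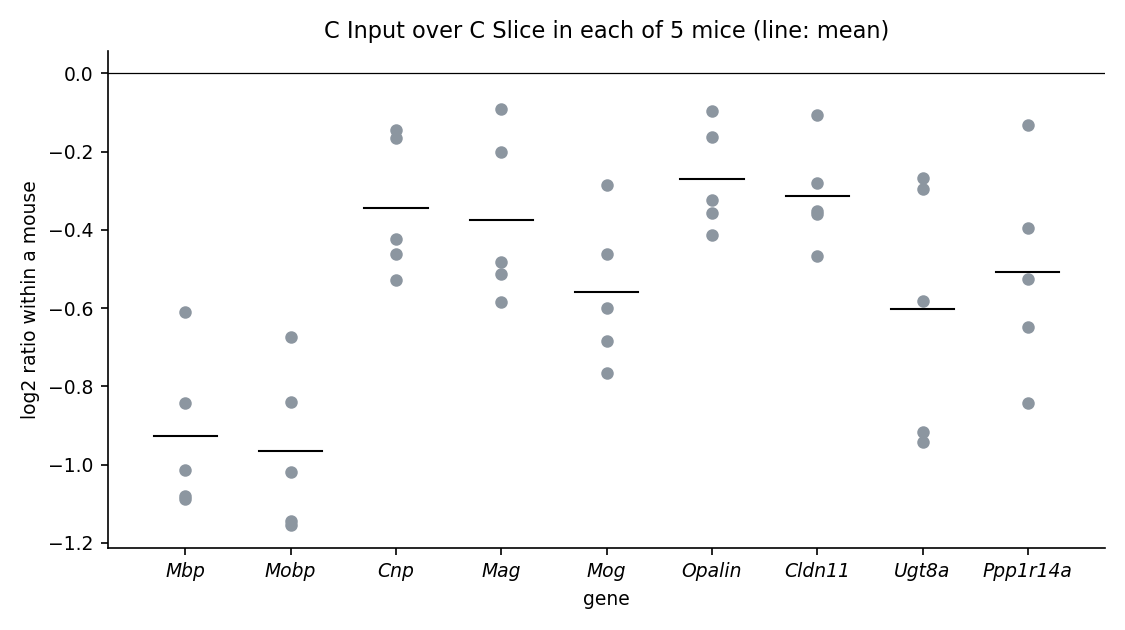
Log2 ratio of C Input to C Slice within each of 5 mice, with TMM scaling, for each member, with lines for means. The means of Mbp and Mobp are -0.93 and -0.97, and those of the other 7 members lie between -0.60 and -0.27.

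Negative fractions of 2 mice departed from their groups in the same genes. Ppp1r14a was at 68.5 CPM in C Neg of mouse 155 and at 25.7 to 32.1 CPM in the other 5 C Neg libraries, and at 93.8 CPM in A Neg of mouse 290 beside 33.7 and 23.9 CPM in mice 293 and 294. Mobp went the other way, to 153 CPM in C Neg of mouse 155 and to 160 CPM in A Neg of mouse 290, each the lowest of its group. Genes past the count filter were split by exon length into 3 sets of equal size. In C Neg of mouse 155 the 4367 shortest genes were above the other C Neg libraries by a median of 0.26 on the log2 scale and the 4366 longest were at -0.19. In A Neg of mouse 290 these medians were 0.31 over 4178 genes and -0.23 over 4176 genes. In C Pos of mouse 194 they went the other way, at -0.12 over 4348 genes and 0.11 over 4346 genes. Ppp1r14a has the shortest exon union of the members, 1367 bases, and Mobp (6849 bases) and Mbp (8469 bases) the longest. The difference of Mbp from the median of the other libraries of its group was 0.06 in C Neg of mouse 155, where it did not follow Mobp. In A Neg of mouse 290 it was -0.38, of the same sign as that of Mobp and smaller in size. The part of the difference by exon length in the members' values was not tested. Without the A Neg library of mouse 290 the A Pos minus A Neg difference was -2.53 for Ppp1r14a and -2.83 for Mobp, and without the C Neg library of mouse 155 the count of members lower in C Pos than in C Neg was again 7.

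**Figure D5:**
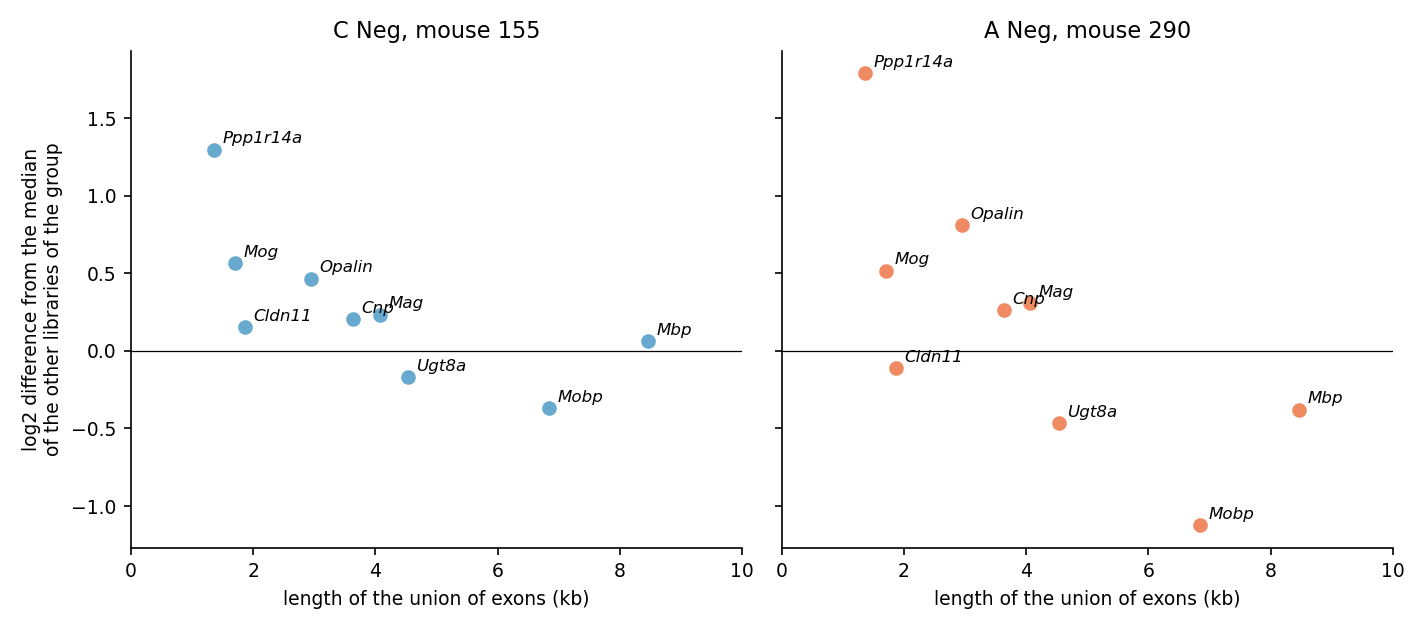
Log2 difference of each member from the median of the other libraries of its group against the length of its exon union in kb, for the negative fractions of mice 155 and 290. Ppp1r14a is highest in both, at 1.30 and 1.79, and Mobp lowest, at -0.37 and -1.12.

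The order of the groups by mean level was alike for most members. A Pos was lowest and C Pos next to lowest for all members but Cnp, whose lowest group was C Pos. Whole tissue was highest for Mbp, Mobp, Cnp, Mag and Ugt8a, and A Neg for Mog, Opalin, Cldn11 and Ppp1r14a. Neighbours in this order that differed by no more than the larger SD included C Neg and C Input for Mobp, Mag, Mog, Opalin and Cldn11, and A Neg and whole tissue for Cnp, Mag, Mog and Opalin. Line, mice and delay after tamoxifen differ together between A and C groups and cannot be told apart, so these levels were not tested between lines. In the positive fractions side by side, Mbp was at 360.3 to 425.9 CPM in A Pos and at 523 to 1611 CPM in C Pos, while Cnp was at 393.9 to 492.2 CPM in A Pos and at 109 to 357 CPM in C Pos.

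Other genes of myelin and the oligodendrocyte lineage, 60 in 5 lists by role, were read in the same comparisons. Against input, 37 of the 59 tested were lower in C Pos and 6 higher, with a median of -0.51, beside 25.6% and 23.2% of all genes tested. Of 8 compact myelin and membrane genes, 5 were lower and 2 higher. The tetraspanin Cd9 had the largest rise of them, by 1.06 (SE 0.08, adjusted p = 2.5e-07). Of 11 adhesion, junction and node genes, 9 were lower and 0 higher, with Ermn at the low end, by 1.19 (SE 0.21, adjusted p = 0.00062), and Hapln2, a link protein of nodes, at the high end with 0.04 (SE 0.20, adjusted p = 0.89). Of 8 tested genes linked to myelin lipids, most of them enzymes, 6 were lower, with Enpp6 falling by 1.08 (SE 0.22, adjusted p = 0.0012), and Elovl1 rose by 0.37 (SE 0.12, adjusted p = 0.023).

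Of 8 tested transcription factors, 6 were lower in C Pos than in input. Sox10 fell by 0.64 (SE 0.08, adjusted p = 1.6e-05) and St18 by 0.76 (SE 0.10, adjusted p = 2.6e-05), while Zfp488 rose by 1.03 (SE 0.26, adjusted p = 0.0057). The row for Myrf, under its older symbol Gm98, is listed at 0 in every library and was not tested. Such a 0 can come from the counting of reads, so nothing is read from it about the level of Myrf. Of 24 other mature oligodendrocyte genes, 11 were lower and 2 higher, from Gpr37, which fell by 1.36 (SE 0.20, adjusted p = 9.5e-05), to Gsn, the actin-severing protein gelsolin made by many cell types, which rose by 2.56 (SE 0.61, adjusted p = 0.0039). Gsn was spread from 67.18 to 1039 CPM in C Pos and from 74.36 to 95.93 CPM in C Input, so the groups overlapped. Against whole tissue 42 of 58 listed genes were lower in C Pos and 3 higher, beside 24.4% and 27.5% of all genes. In input against whole tissue 32 of 59 were lower and 1 higher, beside 14.2% and 16.3% of all genes. Bcas1 had the lowest value of them there, -1.31 (SE 0.13, adjusted p = 3.7e-05), below those of Mbp and Mobp. In the negative fraction against input 0 of 59 passed in either direction, beside 4.7% of all genes that were lower and 1.4% that were higher. The fit behind these counts did not pair the libraries by mouse.

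In the astrocyte pulldown, where no test is given, 37 of the 58 listed genes tested were below 0, with a median of -0.80 and a range from -3.01 to 2.78. Below 0 were 4 of 8 compact myelin and membrane genes (median -0.64), 8 of 11 adhesion, junction and node genes (median -0.78), 5 of 8 genes linked to myelin lipids (median -0.98), 4 of 8 transcription factors (median 0.17) and 16 of 23 other mature genes (median -0.97). The median over all genes tested was 0.04, so an even split around 0, such as 4 of 8, is near that of all genes. Values above 1 included Cmtm5, a membrane protein, at 2.78 (SE 0.33), and the lineage factors Nkx2-2 at 1.77 (SE 0.24) and Olig1 at 1.55 (SE 0.16). Sox10 was at -1.90 (SE 0.22). A published oligodendrocyte list from cell-sorting studies, with the members left out, had 112 of 185 genes lower and 9 higher in C Pos than in input, with a median of -0.47, beside the same 25.6% and 23.2% of all genes.

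Likeness to the mean of the members over the 29 libraries was measured by the root mean square difference of centred log2 CPM among 14105 genes. The 5 closest genes included Tmem88b (0.13), Ndrg1 (0.16), Pllp (0.18) and Mal (0.18). The median over all genes compared was 0.92. Over the 6 group means, 3 of the 5 were again among the closest 5. Among the members, Mog (0.21) and Mbp (0.22) lay closest to the mean of the other 8 and Cnp (0.93) farthest.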

How the data were processed

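RNA of TRAP fractions, input and whole brain tissue was measured by strand-specific polyA RNA-seq in 29 libraries, grouped by the labels. The authors used Strand NGS to trim reads and align them to the mm10 build, and deposited expected counts per gene, which were used here, and log2 values made from them with DESeq, which were not. Of the nonzero values 81.4% were not whole (tolerance 0.001), and all were rounded. Columns without a sample numbered 0. Tests were run on genes above 20 counts throughout at least one of the groups compared, with edgeR 4.0.16 (R 4.3.3, TMM, quasi-likelihood, 2-sided, Benjamini-Hochberg, threshold 0.05), checked on simulated data. DESeq2 1.42.0 was an alternative, beside other scalings, filters, fits and left-out mice. Ratios within a mouse used log2 CPM with a prior count of 2. Exon lengths came from GENCODE M21. Other steps used numpy 2.4.6, pandas 2.3.3 and matplotlib 3.10.9 in Python 3.11.15.

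Libraries with one number come from the same mouse. Correlations of their deviations from group means exceeded 0.1 in 3 of 6 pairs (C Pos with C Input or C Neg), 5 of 6 (C Neg with C Input), 0 of 5 (with C Slice) and 3 of 3 (A Pos with A Neg). The mouse was not a block in the tests unless stated.

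Genes named besides the members were Myrf and Sox10, the largest rise and fall of each list in C Pos against C Input, the 8 largest falls and the edge of the choice in A Pos against A Neg, and the 5 most similar genes, of which some results are not reported here. Fa2h and Cmtm5, Nkx2-2 and Olig1 in the astrocyte pulldown, and Bcas1 in input against whole tissue, were named after their values were seen. Members and lists were chosen with earlier results of these data known.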

Additional observations from a re-analysis of the deposited data

Results flagged for a closer look

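In groups of 4 to 10 mice, 36 member and group combinations were checked for a library far from the others by Dixon's criterion, which chance flags in about 5% of groups, and 6 stood out, in 2 libraries. In C Pos of mouse 194, Mbp was at 523.3 CPM, Mog at 26.65 CPM and Cldn11 at 28.63 CPM, each far below the other 5 mice. In C Neg of mouse 155, Mobp was low at 153.2 CPM, and Mog at 108 CPM and Ppp1r14a at 68.53 CPM were high. No member moved one way in every mouse of one line and the other way in every mouse of the other line between positive and negative fraction.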

How the results depend on the processing

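The counts of members lower in C Pos than in C Input, C Neg and C Slice (7, 7 and 8) stayed within 1.5 times under each alternative run, with 6 to 7, 5 to 7 and 7 to 9 when a mouse was left out. The count for C Input against C Slice (7) ranged from 5 to 9 without a mouse and was 5 with all groups in one fit. The count for C Neg against C Input (1) was 0 with all groups in one fit and 0 to 1 without a mouse. Mice pair the libraries, and with mouse as a replicate block the 5 counts were 7, 7, 8, 1 and 8, with the changes of calls given in the report. The sign of Ppp1r14a in C Pos against C Input turned without the C Pos library of mouse 194 (0.08, an alternative chosen after seeing the data), and ranged from -0.25 to 0.10 without a mouse, the cause of which was not tested. In the astrocyte pulldown, library totals alone gave -2.88 for Mobp, -3.11 for Mag and -3.38 for Cldn11. In A Pos, Opalin and Ppp1r14a had the lowest counts of the members, down to 38 and 41, so their values there rest on the fewest reads.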
